A study of Mus musculus with 38 samples.

Results

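The 30 probes described here report 10 lysine methyltransferase genes of the Nsd, Setd, Smyd and Dot1l groups on a mouse whole-genome array that carries 41174 different probes under 27962 names. They were chosen by gene name alone: every probe, control probes left out, that the scanner files name Nsd1, Whsc1 (now called Nsd2), Whsc1l1 (now Nsd3), Setd2, Setd3, Setd5, Smyd2, Smyd3, Smyd4 or Dot1l. No measured value was used to pick probes of these genes. The genes themselves were chosen with earlier results of these arrays known, so the counts below are not those of an unselected set. Among those results was that probes of Setd5, Setd3 and Smyd3 disagree with each other. Whsc1 had 6 probes, Setd5 had 5, Whsc1l1 had 4, Setd3, Smyd3 and Dot1l had 3 each, Nsd1 and Smyd2 had 2 each, and Setd2 and Smyd4 had 1 each. Within a gene the probes are numbered in the direction of transcription, so that the highest number lies nearest the 3′ end.

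Lysine methyltransferases add methyl groups to histones and other proteins, and most of them carry a SET domain as their catalytic core. Nsd1, Whsc1 and Whsc1l1 place the lower methylation states of H3K36 and Setd2 places the trimethyl mark behind elongating RNA polymerase, whereas Dot1l, which lacks a SET domain, methylates H3K79 in transcribed genes. Smyd2 and Smyd3 also methylate non-histone proteins, among them Trp53 and the kinase Map3k2, Setd3 methylates a histidine of actin, and Setd5 is a SET-domain protein whose own catalytic activity is disputed.

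Tumors were grown from focal hyperplasias of MMTV-PyMT;actin-GFP mice, in which the mammary tumor virus promoter drives the Polyoma middle T oncogene and all tumor-derived cells carry GFP. The pieces were grafted into FVB/n females whose mammary fat pads had been cleared, and GFP-positive cells were sorted before RNA was taken, so every group shares the oncogene, the reporter and the host strain. The progression experiment held 22 arrays: 5 of adenoma (outgrowths of 5 weeks), 6 of carcinoma (18 weeks), 6 of disseminated tumor cells taken from lungs at 18 weeks, with 3 to 6 mice pooled, and 5 of lung metastases collected 8 to 10 weeks after the primary tumor was removed. The chemotherapy experiment held 16 arrays: 6 of untreated tumors, 6 of residual tumors and 4 of relapsed tumors. Residual tumors were taken 10 days after dose 1 and relapsed tumors 10 days after dose 4 of docetaxel, doxorubicin and cyclophosphamide, which was given every 21 days from 8 weeks after transplantation (the labels call these groups regressed and resistant). Each array compared Cy5-labelled sample RNA with 1 Cy3-labelled universal mouse reference. Every level below is therefore log2(sample/reference), where 0 means the same signal as the reference, a difference of 1 means 2-fold, and levels of different probes cannot be set against each other.

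The sample channel was well above background for between 47.6% and 78.3% of probes on each array. Genes of the mammary luminal epithelium (10 genes, such as Krt8, Krt18 and Epcam) were mostly detected, with 8 or 9 of the 10 well above background on every array of each group. Their levels were not alike. The mean log2 ratio of these genes ran from 1.57 to 2.27 (median 1.94) in adenoma and from 1.12 to 2.30 (2.22) in carcinoma. It ran from -0.71 to 2.19 (0.54) in disseminated cells and from -0.45 to 3.12 (2.01) in metastases. The mean log2 ratio of 11 macrophage genes ran from -0.47 to 0.07 (median 0.02) in adenoma and from -0.70 to 4.47 (0.03) in carcinoma. It ran from 3.33 to 5.23 (4.38) in disseminated cells and from 0.89 to 5.21 (3.41) in metastases. The mean of 7 lung epithelial genes ran from 0.82 to 1.30 in adenoma and from 2.31 to 3.56 in disseminated cells. Adenoma overlapped neither with disseminated cells nor with metastases in the macrophage mean. Group and macrophage genes thus cannot be told apart in these comparisons, and the covariate fits given below for them cannot separate the effects. Carcinoma reached the ranges of disseminated cells and metastases only through its highest value (4.47). Covariate fits of these groups against carcinoma therefore lean on that array, whether a call passes in them or not. With the macrophage mean as a covariate limma called 0 of 30 member probes and 69 of all 41174 probes in disseminated cells against adenoma. Carcinoma replicate 6 (median correlation with its own group 0.768), disseminated replicates 4 and 6 (0.773 and 0.685) and metastases replicate 4 (0.782) were the arrays least like their own group. Carcinoma and metastases shared slides and a scan day, as did adenoma and disseminated cells on other slides and another day. Slide and scan day thus cannot be told apart from group in the other comparisons of the progression experiment. The labels do not say that replicates came from separate animals, so the p-values measure the spread between these samples, and fewer cells of a type cannot be told apart from less RNA per cell.

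In progression, at least 1 probe of each of the 10 genes changed in at least 1 of the 6 comparisons, and 20 of the 30 probes did so. A probe was called at a limma p below 0.05 after Benjamini-Hochberg adjustment over all probes of the array. Metastases against adenoma gave the most calls: 8 probes were higher and 6 lower, 14 of 30, where 27.5% of all probes on the array were called (13.1% higher and 14.4% lower). Of these, 7 changed at least 2-fold (background 13.9%), and for 10 of the 30 probes the 2 groups did not overlap at all (background 20.6%). The median change of the 30 probes was -0.15, against 0.02 for all probes.

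The other comparisons touched fewer members. In metastases against carcinoma 8 of 30 probes were called (5 higher and 3 lower, background 21%, or 8.96% higher and 12.1% lower), and in metastases against disseminated cells 8 were called (7 higher and 1 lower, background 12.9%, or 6.93% and 5.93%). In disseminated cells 9 were called against adenoma (1 higher and 8 lower, background 18.2%, or 7.59% and 10.7%) and 6 against carcinoma (2 higher and 4 lower, background 24.7%, or 9.46% and 15.3%). Carcinoma against adenoma gave 5 calls (2 higher and 3 lower, background 11.5%, or 6.26% and 5.21%). These comparisons share groups, so their counts are not independent. Setd5, Setd2, Smyd3, Setd3, Smyd2 and Whsc1l1 held the probes that changed by at least 2-fold, and Smyd3 was the gene with calls in both directions within metastases against adenoma and within metastases against carcinoma.

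**Figure D1:**
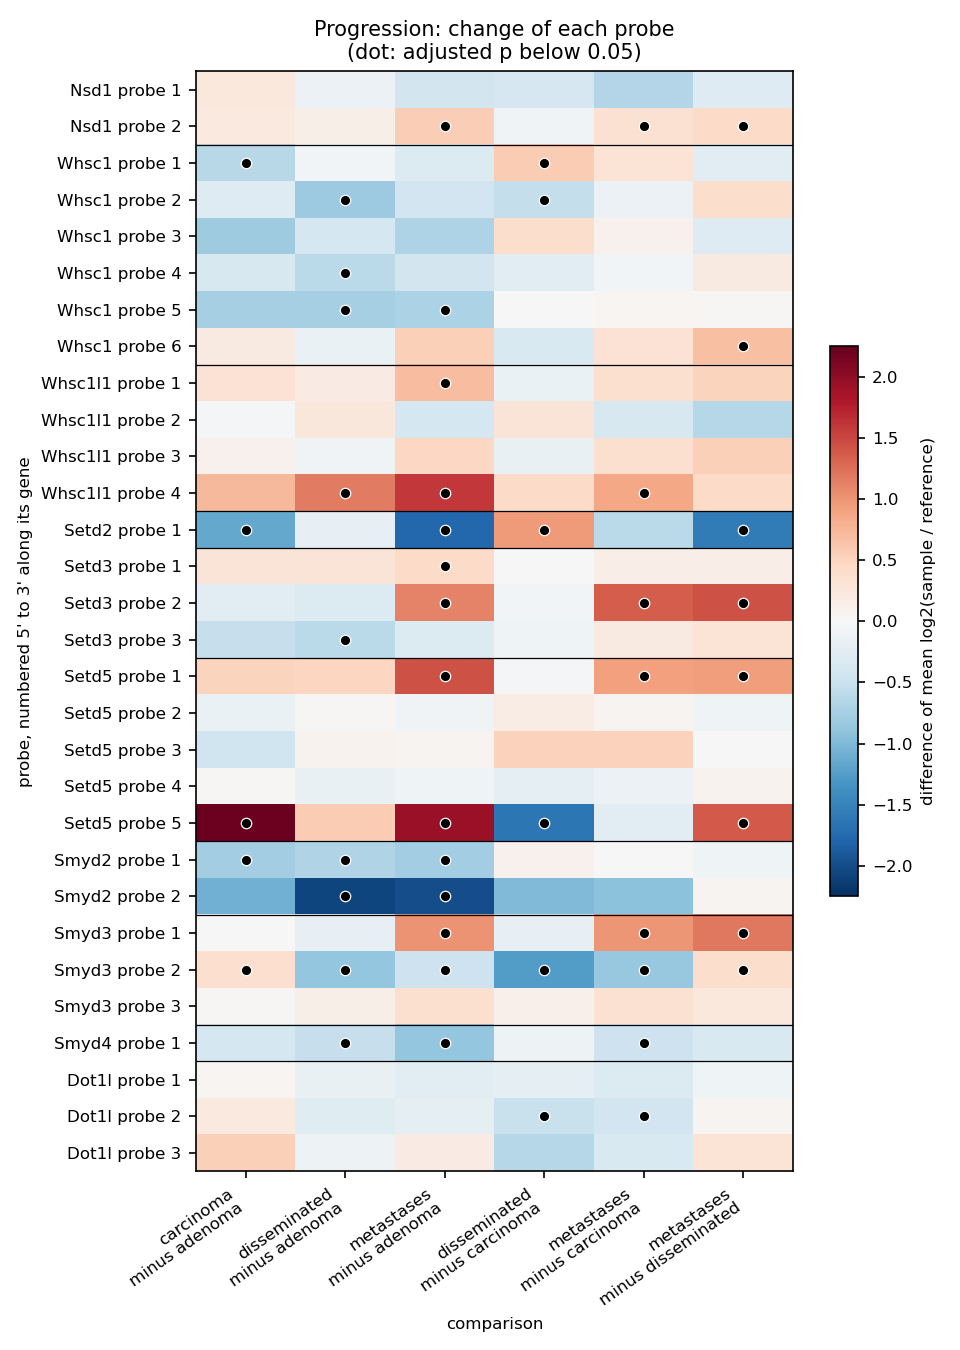
Difference of group means in log2(sample/reference) for each of the 30 probes (rows, ordered by gene and then from 5′ to 3′) in the 6 progression comparisons (columns). Red is higher and blue lower in the first-named group, and a black dot marks an adjusted p below 0.05. Probes of Setd5 (2 of 5 called in metastases against adenoma) and Smyd3 (1 higher, 1 lower) differ within the gene.

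Setd2, the enzyme of the H3K36 trimethyl mark, differed in 4 of the 6 comparisons. Its single probe (chr9:110316122-110316181, plus strand, mouse build mm7, from a predicted mRNA) read 0.14, 0.32, -0.19, -0.15 and 0.27 in the 5 adenomas. In the 5 metastases it read -1.43, -1.43, -2.26, -1.92 and -1.37. Carcinomas ran from -1.67 to -0.83 (median -0.96) and disseminated cells from -0.89 to 0.67 (median -0.13). All metastases and all carcinomas thus lay below all adenomas, whereas disseminated cells overlapped with adenoma. Each called change of Setd2 lies between arrays of different slides and scan days. Between groups that shared slides, metastases differed from carcinoma by -0.61 and disseminated cells from adenoma by -0.19, neither called. Whether slide or scan day contributed to the called changes was not tested. Setd2 fell by 1.76 in metastases against adenoma (SE 0.23, adjusted p = 3.96e-05), which is a 3.39-fold difference, and carcinoma against adenoma differed by -1.15 (SE 0.22, adjusted p = 0.00299). Disseminated cells were 0.96 above carcinoma (SE 0.21, adjusted p = 0.00303), and metastases differed from disseminated cells by -1.57 (SE 0.22, adjusted p = 0.000287). The metastasis-adenoma difference was -1.32 (adjusted p = 0.00564) with the mean of the macrophage genes as a covariate and -1.70 (adjusted p = 1.87e-05) without the 4 arrays that stood apart.

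Among the Nsd enzymes, Whsc1l1 (Nsd3) was the gene with a called change of at least 2-fold, in 1 of its 4 probes. Probe 4, at the 3′ end of the gene (chr8:24475880-24475939, plus strand), read 0.05, -0.18, -0.88, -1.62 and -1.0 in adenoma and 0.58, 1.28, 0.48, 1.10 and 0.93 in metastases. Carcinoma ran from -0.25 to 0.30 (median -0.02) and disseminated cells from -0.43 to 1.33 (median 0.39). Every metastasis lay above every adenoma and every carcinoma, while disseminated cells overlapped with both. The probe rose by 1.60 in metastases against adenoma (SE 0.31, adjusted p = 0.000859) and by 1.17 in disseminated cells against adenoma (SE 0.30, adjusted p = 0.0103). These were 1.51 (adjusted p = 0.0274) and 1.04 (adjusted p = 0.567) with the macrophage covariate. The rise of 0.87 against carcinoma (SE 0.30, adjusted p = 0.0425) did not pass without any 1 of carcinoma replicates 1, 2, 3, 4 and 5 or of metastases replicates 1, 2, 4 and 5 (0.76 to 0.94, adjusted p up to 0.104), nor with the covariate (0.79, adjusted p = 0.208). Probe 1 of Whsc1l1, which lies 42507 bases upstream, ran from 0.19 to 1.20 (median 0.69) in adenoma, from 0.81 to 1.38 (1.06) in carcinoma, from 0.67 to 1.35 (0.91) in disseminated cells and from 0.77 to 2.03 (1.45) in metastases. It was higher by 0.69 in metastases against adenoma (SE 0.22, adjusted p = 0.0253), with the groups overlapping, and not called without adenoma replicate 1 or 3 or metastases replicate 4 or 5 (0.54 to 0.61, adjusted p up to 0.0788) or with the covariate (0.63, adjusted p = 0.201). Probe 2 differed by -0.39 and probe 3 by 0.46 between metastases and adenoma, both short of the threshold.

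Whsc1 (Nsd2), the H3K36 dimethylating enzyme, moved by less than 2-fold on each of its 6 probes. Probes 2, 4 and 5 were lower in disseminated cells than in adenoma, and probe 6, the 3′-most, was higher in metastases than in disseminated cells. Probe 2 ran from -0.95 to -0.16 (median -0.60) in adenoma, from -1.02 to -0.69 (-0.92) in carcinoma, from -1.93 to -1.10 (-1.32) in disseminated cells and from -1.54 to -0.49 (-1.07) in metastases. All 6 disseminated samples lay below all adenomas and all carcinomas. It fell by 0.82 in disseminated cells against adenoma (SE 0.17, adjusted p = 0.004) and by 0.53 against carcinoma (SE 0.17, adjusted p = 0.0241), the latter not called without carcinoma replicate 3 or disseminated replicate 4 or 5 (-0.49, -0.43 and -0.48). Probe 5 ran from -0.25 to 1.46 (median 1.22) in adenoma, from -0.32 to 0.52 (0.33) in disseminated cells and from 0.04 to 0.53 (0.20) in metastases, and probe 4 ran from -1.0 to 0.30 (-0.11) in adenoma and from -1.15 to -0.42 (-0.83) in disseminated cells. In both, adenoma replicate 4 was the lowest adenoma and the groups overlapped. Against adenoma, probe 5 differed by -0.74 in disseminated cells (SE 0.25, adjusted p = 0.0407) and by -0.71 in metastases (SE 0.26, adjusted p = 0.0449), and probe 4 by -0.61 in disseminated cells (SE 0.19, adjusted p = 0.0277). None of these held in every leave-one-out fit: in disseminated cells, probe 4 was not called without adenoma replicate 1, 2, 3 or 5 or disseminated replicate 3 or 5 (-0.59 to -0.48), nor was probe 5 without adenoma replicate 1, 2, 3 or 5 or disseminated replicate 2, 3 or 5 (-0.74 to -0.63), and in metastases probe 5 was not called without adenoma replicate 1, 2, 3 or 5, metastases replicate 1, 3 or 5, carcinoma replicate 3 or disseminated replicate 2 or 3 (-0.71 to -0.59). Probe 1 ran from -1.19 to -0.44 (median -0.94) in adenoma, from -1.69 to -1.11 (-1.46) in carcinoma and from -1.27 to -0.16 (-1.04) in disseminated cells. Carcinoma was lower than adenoma by 0.63 on this probe (difference -0.63, SE 0.19, adjusted p = 0.0339) and lower than disseminated cells by 0.57 (SE 0.18, adjusted p = 0.024). The first was not called without adenoma replicate 1, 2 or 3 or carcinoma replicate 1, 2, 3, 4 or 5 (-0.66 to -0.53), and the second not without carcinoma replicate 1 or 2 or disseminated replicate 1 or 6 (0.42 to 0.53). Probe 6 ran from -1.63 to -0.22 (median -1.20) in disseminated cells and from -0.75 to -0.16 (-0.38) in metastases, a difference of 0.68 (SE 0.19, adjusted p = 0.0261) that was not called without disseminated replicate 2, 3 or 4 or metastases replicate 1 or 2 (0.57 to 0.63). Probe 1 was well above background on 2 of 5 adenoma, 3 of 6 carcinoma and 2 of 6 disseminated arrays.

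With the macrophage covariate the differences of Whsc1 between disseminated cells and adenoma were -0.64 for probe 2 (adjusted p = 0.527), -0.32 for probe 4 (adjusted p = 0.823) and -0.51 for probe 5 (adjusted p = 0.783). Between disseminated cells and carcinoma they were 0.24 for probe 1 (adjusted p = 0.687) and -0.38 for probe 2 (adjusted p = 0.485), and probe 5 differed by -0.54 (adjusted p = 0.356) between metastases and adenoma. The calls of probe 1 in carcinoma against adenoma (-0.69) and of probe 6 in metastases against disseminated cells (0.66) still passed. Without the 4 arrays that stood apart, probe 2 differed by -0.45 from carcinoma (adjusted p = 0.0856) and probe 5 by -0.78 between metastases and adenoma (adjusted p = 0.0542).

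Nsd1, the third enzyme of this family, rose slightly on 1 of its 2 probes. Probe 2 (chr13:54394568-54394627, plus strand) was well above background on all 5 metastases arrays but on no adenoma or carcinoma array and on 1 of 6 disseminated arrays. It ran from -0.34 to 0.07 (median -0.06) in adenoma, from -0.06 to 0.33 (0.08) in carcinoma, from -0.41 to 0.19 (0.10) in disseminated cells and from 0.20 to 0.66 (0.45) in metastases. Metastases did not overlap with adenoma or with disseminated cells. Since the dimmer groups have only a bound, metastases were at least 1.32-fold above adenoma and at least 1.39-fold above carcinoma. Here the sample channel of each array was compared with the dimmest signal well above background on that array, a value open to dye bias. The differences of the log2 ratios, not these bounds, had limma adjusted p = 0.00211 and 0.0392. The reference channel of probe 2 was well above background on 4 of the 22 progression arrays, so its ratios are uncertain. The call against carcinoma was not met without carcinoma replicate 1, 2, 3 or 4 or metastases replicate 2, 3 or 4 (0.29 to 0.36). Against disseminated cells, of which 5 of 6 arrays were not well above background, the difference of the measured values was 0.43 (SE 0.12, adjusted p = 0.0188), or 0.37 (adjusted p = 0.061) without metastases replicate 2. The differences from adenoma and carcinoma were 0.51 (adjusted p = 0.0525) and 0.31 (adjusted p = 0.211) with the macrophage covariate. Probe 1, which lies 75669 bases upstream, ran in adenoma from -1.26 in replicate 4 to 3.29 in replicate 3, and was called in no comparison.

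Setd5 rose on its first and last probes in metastases against adenoma, the last probe also rose in carcinoma against adenoma, and none of the 3 probes between them was called. Probes 1 and 2 were designed on full-length cDNA clones without an assigned coding sequence (chr6:113268222-113268281 and chr6:113274483-113274542, plus strand, the strand of the gene), probe 3 spans a splice junction of the RefSeq mRNA NM_028385 (chr6:113275973-113276473), probe 4 lies at chr6:113282577-113282636 and probe 5 at chr6:113314266-113314325. Probe 5 is thus 31689 bases downstream of probe 4 and 46044 bases downstream of probe 1. It had a median sample signal above local background of 53901 in carcinoma and 6434 in adenoma, whereas probe 2 was well above background on 1 of the 22 progression arrays and its levels outside that array are not above background. An exon annotation of build mm7 was not used here, so the exons of the probes are not given.

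The 3′-most probe 5 read -2.08, -1.89, -1.96, -1.90 and -2.20 in the 5 adenomas. In the 5 metastases it read 0.28, -0.29, -0.69, -1.06 and 1.48. Carcinoma ran from -0.50 to 0.89 (median 0.31) and disseminated cells from -2.38 to 0.06 (median -1.56). Every carcinoma and every metastasis lay above every adenoma, while disseminated cells reached down to the adenoma level, with 1 sample near the reference level. This order also follows the slides and scan days, and each called change of this probe lies between arrays of different slides and days. Between groups that shared slides, metastases differed from carcinoma by -0.25 and disseminated cells from adenoma by 0.57, neither called. Whether slide or scan day contributed to the called changes was not tested. The probe rose by 2.20 in carcinoma against adenoma (SE 0.41, adjusted p = 0.00227, 4.60-fold) and by 1.95 in metastases against adenoma (SE 0.43, adjusted p = 0.00219, 3.87-fold). It was 1.63 lower in disseminated cells than in carcinoma (difference -1.63, SE 0.39, adjusted p = 0.00494), and this became -0.70 (adjusted p = 0.543) with the macrophage genes as a covariate and -2.21 (adjusted p = 0.000102) without the 4 arrays that stood apart. Metastases were 1.38 above disseminated cells (SE 0.41, adjusted p = 0.0302), a call lost without disseminated replicate 1, 2 or 3 or metastases replicate 1 or 5 (1.0 to 1.30, adjusted p up to 0.0874). Metastases were 1.05 above them (adjusted p = 0.0789) with the covariate and 2.07 above them (adjusted p = 0.000493) without the 4 arrays.

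Probe 1 of Setd5, at the other end, followed another order. It read -0.18, -0.55, -0.37, -1.0 and -0.86 in adenoma and 1.11, 1.07, 0.86, 0.84 and 0.32 in metastases. Carcinoma ran from -0.39 to 0.33 (median -0.15) and disseminated cells from -1.11 to 0.90 (median -0.18). Metastases lay above all adenomas, and 1 of them lay within the range of carcinoma. The probe rose by 1.43 in metastases against adenoma (SE 0.27, adjusted p = 0.000797), by 0.93 against carcinoma (SE 0.26, adjusted p = 0.0168) and by 0.95 against disseminated cells (SE 0.26, adjusted p = 0.022), the last not called without disseminated replicate 2 or 3 or metastases replicate 1 or 2 (0.75 to 0.89). The difference from carcinoma was 0.93 (adjusted p = 0.0951) with the macrophage covariate. It was not called in carcinoma against adenoma (0.51), the comparison in which probe 5 changed most.

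The 3 middle probes of Setd5 were called in no comparison. Probe 2 ran from -1.78 to -0.91 over the adenomas and from -1.48 to -1.18 over the metastases, probe 3 from -2.63 to -1.22 and from -2.06 to -0.86, and probe 4 from -0.56 to 0.03 and from -0.50 to -0.18. Metastases against adenoma differed by -0.07, 0.07 and -0.09 on these probes, and carcinoma and disseminated cells overlapped with both groups on each of them. Of the 10 pairs of Setd5 probes, 7 had group patterns that differed from each other (below 0.05 in an F test of the within-array difference of the 2 probes over the 4 groups, adjusted over all 19547 same-gene probe pairs of the array). These were all 4 pairs with probe 5 (adjusted p from 0.000577 to 0.00519) and all 4 pairs with probe 1, which share 1 pair. Pairs among probes 2, 3 and 4 were not called (adjusted p = 0.488, 0.114 and 0.0988).

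**Figure D2:**
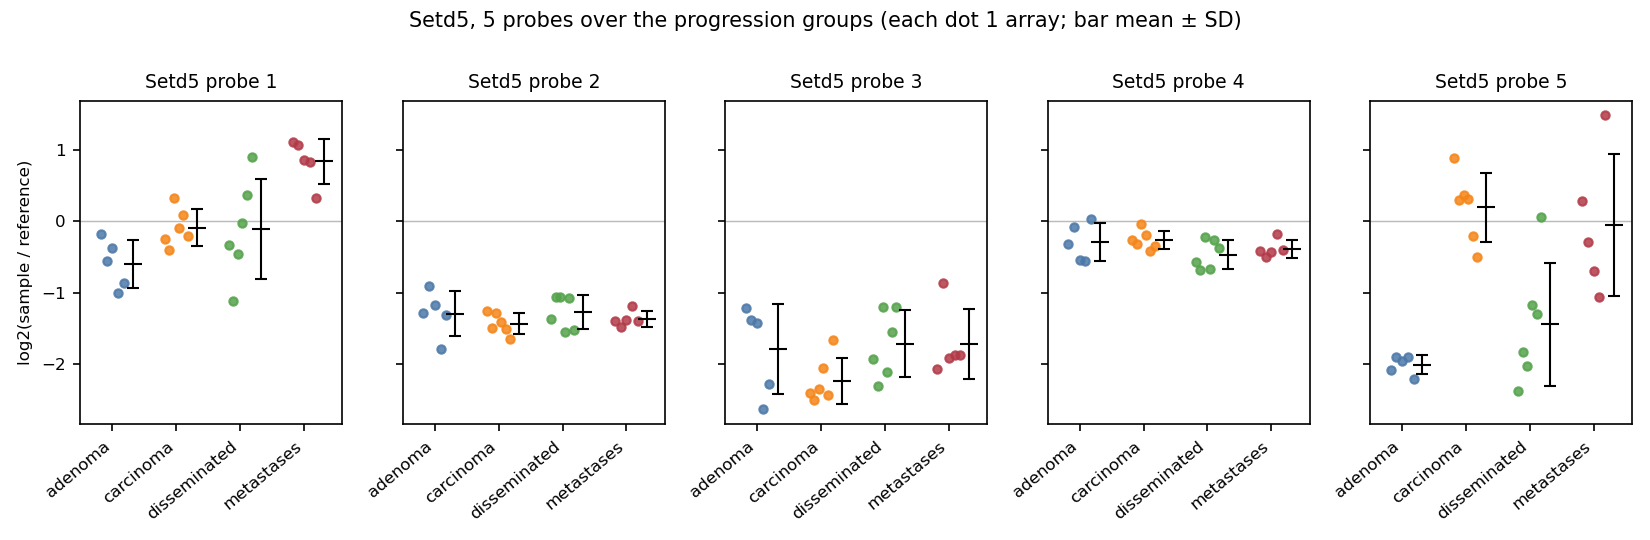
Levels of the 5 Setd5 probes, in order from the 5′ to the 3′ end, as log2(sample/reference) on the vertical axis over the 4 progression groups. Each dot is 1 array and the bars give the mean ± SD (n = 5, 6, 6 and 5). Probe 5 separates adenoma (-2.20 to -1.89) from carcinoma (-0.50 to 0.89), which was on other slides and another scan day. Probe 1 is highest in metastases (0.32 to 1.11), and probes 2 to 4 overlap in all groups.

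Setd3, the actin histidine methyltransferase, rose in metastases on 1 of its 2 RefSeq probes and not on its neighbour. Probe 2 (chr12:105628432-105628491, minus strand) and probe 3 (chr12:105627893-105627952), the 3′-most, both derive from NM_028262 and are 480 bases apart from end to start, and both were well above background on all 22 progression arrays. Probe 1 (chr12:105638250-105638309) was designed on a cDNA clone and lies 10357 bases from probe 3.

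Probe 2 of Setd3 read -1.39, -1.24, -0.68, -1.38 and -1.39 in adenoma and -0.09, 0.87, 0.01, -0.34 and -0.94 in metastases. Carcinoma ran from -1.83 to -0.52 (median -1.59) and disseminated cells from -2.16 to -0.05 (median -1.74). The highest carcinoma and the highest disseminated sample were replicates 6 of both groups, 2 of the arrays least like their own group. The probe rose in metastases by 1.12 against adenoma (SE 0.35, adjusted p = 0.0227), by 1.37 against carcinoma (SE 0.34, adjusted p = 0.00756) and by 1.43 against disseminated cells (SE 0.34, adjusted p = 0.0085), with overlapping groups each time. Without the 4 arrays that stood apart the rises were 1.18, 1.61 and 1.81, and without metastases replicate 2 the rise against adenoma was 0.88 (adjusted p = 0.0697). With the macrophage covariate the rise against disseminated cells was 1.54 (adjusted p = 0.00739), while those against adenoma (0.85) and carcinoma (1.16) did not pass.

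Probe 3 of Setd3 showed no rise in metastases. It read -0.46, -0.24, -0.34, -0.47 and -0.54 in adenoma and -0.55, 0.19, -0.83, -1.23 and -1.15 in metastases, where 1 sample was above and 4 were below all adenomas. Carcinoma ran from -1.21 to -0.55 (median -0.95) and disseminated cells from -1.55 to -0.62 (median -1.05). Metastases against adenoma differed by -0.30, and disseminated cells fell by 0.61 against adenoma (SE 0.21, adjusted p = 0.0451). Although no disseminated sample overlapped with adenoma, this call was lost without any 1 of 14 of the 22 arrays, namely adenoma replicate 1, 2, 3, 4 or 5, carcinoma replicate 3, 4 or 5, disseminated replicate 1, 2, 3 or 5, or metastases replicate 1 or 3 (-0.64 to -0.51, adjusted p up to 0.114), while without the 4 arrays that stood apart the difference was -0.80 (adjusted p = 0.00874). Probe 1 was higher by 0.44 in metastases than in adenoma (SE 0.12, adjusted p = 0.00939), running from -0.06 to 0.61 (median 0.20) in adenoma and from 0.50 to 0.83 (0.69) in metastases. The covariate left this at 0.44 with an adjusted p of 0.0854, and put the change of probe 3 at -0.26 (adjusted p = 0.878). All 3 pairs of Setd3 probes differed in group pattern (adjusted p = 0.0198 for probes 1 and 2, 0.0211 for 1 and 3, and 0.00122 for 2 and 3). Across the 22 arrays probes 2 and 3 still correlated at r = 0.52, whereas probes 1 and 3 had r = -0.36.

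Smyd3, which methylates the kinase Map3k2, was called in opposite directions on 2 probes of 1 RefSeq mRNA, NM_027188. Probe 1 spans an intron of the gene (chr1:179385460-179390506, minus strand) and lies 449341 bases from probe 3 (chr1:178936119-178936178), the 3′-most, while probe 2 (chr1:178938127-178938186) is 2008 bases from it. Probe 2 was well above background on all 22 arrays. Probe 1 was well above background on 1 of 5 adenoma, 6 of 6 carcinoma, 2 of 6 disseminated and 5 of 5 metastasis arrays, and probe 3 on 3, 5, 4 and 5 arrays of the same groups.

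Probe 1 of Smyd3 read -0.92, -0.97, -0.70, -1.26 and -1.51 in adenoma and -0.14, 0.24, 0.24, -0.16 and -0.50 in metastases. Carcinoma ran from -1.40 to -0.64 (median -1.04) and disseminated cells from -1.76 to -0.09 (median -1.45). All metastases lay above all adenomas and all carcinomas. The probe rose by 1.01 against adenoma (SE 0.26, adjusted p = 0.00636), by 1.0 against carcinoma (SE 0.25, adjusted p = 0.00729) and by 1.19 against disseminated cells (SE 0.25, adjusted p = 0.00373). The values of 4 of 5 adenomas and 4 of 6 disseminated samples were not well above background, so the sizes of the first and last of these rises are uncertain. With the macrophage covariate the rises against adenoma and carcinoma were 0.76 (adjusted p = 0.164) and 0.81 (adjusted p = 0.107), and without the 4 arrays that stood apart they were 1.03 (adjusted p = 0.000815) and 1.11 (adjusted p = 0.000608).

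Probe 2 of Smyd3 read -0.81, -0.74, -0.77, -0.43 and -0.63 in adenoma and -1.06, -1.11, -1.20, -1.35 and -1.04 in metastases. Carcinoma ran from -0.51 to -0.17 (median -0.29) and disseminated cells from -2.02 to -1.24 (median -1.48). The group means stood in the order carcinoma, adenoma, metastases and disseminated cells, and every pair of neighbours in that order was called. Samples of carcinoma and adenoma overlapped, as did those of metastases and disseminated cells. Disseminated cells were 1.26 below carcinoma (difference -1.26, SE 0.11, adjusted p = 2.49e-06, 2.39-fold) and 0.88 below adenoma (difference -0.88, SE 0.12, adjusted p = 0.000196), with no overlap. Metastases fell by 0.86 against carcinoma (SE 0.12, adjusted p = 0.000182) and by 0.47 against adenoma (SE 0.12, adjusted p = 0.00812), and they lay 0.40 above disseminated cells (SE 0.12, adjusted p = 0.0305). This last difference was not called without disseminated replicate 3 or 5 or metastases replicate 1, 2, 3 or 5 (0.31 to 0.42), and the rise of 0.38 in carcinoma against adenoma (SE 0.12, adjusted p = 0.0434) was not called without adenoma replicate 1, 2, 3 or 5, carcinoma replicate 1, 2, 3, 4 or 5, disseminated replicate 1 or metastases replicate 1, 2 or 3 (0.35 to 0.39). With the covariate the differences from adenoma were -0.60 in disseminated cells (adjusted p = 0.236) and -0.28 in metastases (adjusted p = 0.283). Those from carcinoma still passed (-1.02 and -0.71), in fits that lean on the carcinoma array with the highest macrophage mean. Probe 3 ran from -0.72 to 0.55 in adenoma and from 0.12 to 0.44 in metastases and was called in no comparison. All 3 pairs of Smyd3 probes differed (adjusted p = 0.000356 for probes 1 and 2, 0.046 for 1 and 3, and 0.000468 for 2 and 3), and probes 2 and 3 had r = -0.40 across the 22 arrays.

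**Figure D3:**
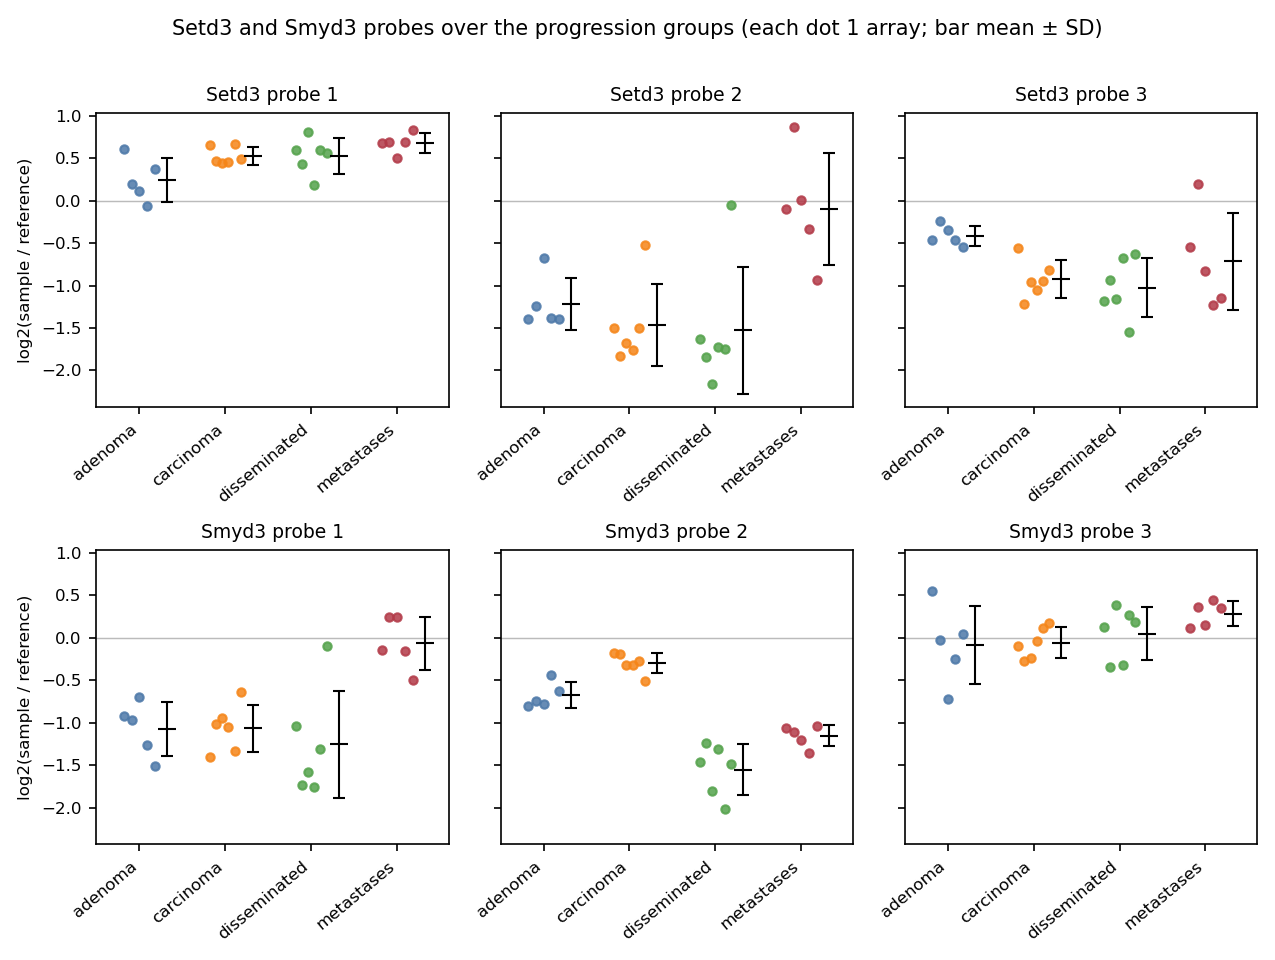
Levels of the Setd3 probes (top) and Smyd3 probes (bottom) as log2(sample/reference) over the 4 progression groups. Each dot is 1 array and the bars give the mean ± SD. Probe 2 of Setd3 and probe 1 of Smyd3 are highest in metastases (means -0.10 and -0.06), whereas probe 2 of Smyd3 is lowest in disseminated cells (mean -1.56) and highest in carcinoma (mean -0.30).

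Smyd2, a methyltransferase of Trp53 and other non-histone proteins, fell on the probe that reads its own strand. Probe 2 (chr1:189412803-189412862, minus strand, the RefSeq probe) read -0.30, -0.46, -0.17, -0.11 and -0.06 in adenoma and -2.05, -1.66, -2.21, -3.37 and -1.83 in metastases. Carcinoma ran from -2.29 to -0.94 (median -1.10) and disseminated cells from -3.75 to -1.0 (median -2.04). No sample of the other 3 groups reached the adenoma range. The probe fell by 2.00 in metastases (SE 0.42, adjusted p = 0.00153, 4.01-fold) and by 2.07 in disseminated cells (SE 0.40, adjusted p = 0.00224, 4.21-fold) against adenoma. With the macrophage covariate these differences were -0.97 (adjusted p = 0.159) and -0.59 (adjusted p = 0.796), and without the 4 arrays that stood apart they were -1.72 (adjusted p = 0.000302) and -2.55 (adjusted p = 8.99e-06). Carcinoma against adenoma differed by -1.08, which did not pass.

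Probe 1 of Smyd2 lies next to probe 2, at chr1:189412871-189412930, but reads the opposite strand of the gene. It ran from 0.39 to 0.97 (median 0.67) in adenoma, from -0.22 to -0.03 (-0.12) in carcinoma, from -0.42 to 0.49 (-0.07) in disseminated cells and from -0.23 to 0.12 (-0.16) in metastases. It was well above background on 4 of 5 adenoma arrays, on no carcinoma array, on 3 of 6 disseminated arrays and on 1 of 5 metastasis arrays. In the sample channel adenoma was at least 1.75-fold above carcinoma on this probe, and the difference of the log2 ratios had a limma adjusted p of 0.000979. The measured values of metastases and disseminated cells, 4 of 5 and 3 of 6 of them not well above background, differed from adenoma by -0.78 (SE 0.14, adjusted p = 0.000354) and -0.68 (SE 0.13, adjusted p = 0.00204), the latter -0.66 (adjusted p = 0.291) with the covariate. The 2 probes had r = 0.69 across the 22 arrays, yet their patterns differed in size (adjusted p = 0.00662).

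Smyd4, a less studied member of the Smyd family, was highest in adenoma and lowest in metastases. Its probe (chr11:75487032-75487091, plus strand) read -0.55, -0.26, -0.25, -0.87 and -0.16 in adenoma and -1.27, -1.53, -1.19, -1.50 and -0.93 in metastases. Carcinoma ran from -1.09 to -0.31 (median -0.85) and disseminated cells from -1.28 to -0.66 (median -0.91). Metastases lay below all adenomas, and the neighbouring groups overlapped. The probe fell by 0.87 in metastases against adenoma (SE 0.16, adjusted p = 0.000629). Smaller differences in disseminated cells against adenoma (-0.52, SE 0.15, adjusted p = 0.0235) and in metastases against carcinoma (-0.47, SE 0.15, adjusted p = 0.0368) were not called in all leave-one-out fits. The first was lost without disseminated replicate 5 or adenoma replicate 2, 3 or 5 (-0.48 to -0.45), and the second without carcinoma replicate 1, 2, 4 or 5 or metastases replicate 1, 2, 3 or 4 (-0.49 to -0.36). Without the 4 arrays that stood apart they were -0.48 (adjusted p = 0.0514) and -0.47 (adjusted p = 0.0621), and with the macrophage covariate -0.26 (adjusted p = 0.825) and -0.33 (adjusted p = 0.317).

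**Figure D4:**
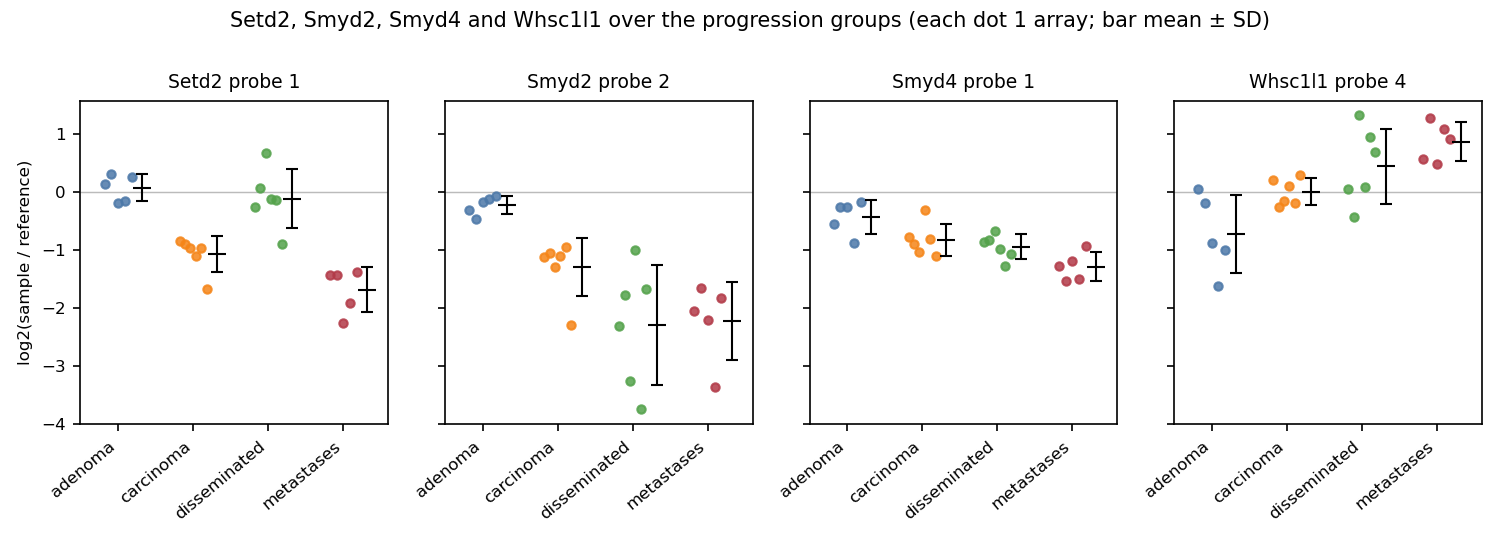
Levels of Setd2, the RefSeq probe of Smyd2, Smyd4 and the 3′-most probe of Whsc1l1 as log2(sample/reference) over the 4 progression groups. Each dot is 1 array and the bars give the mean ± SD. Setd2, Smyd2 and Smyd4 are lower in metastases than in adenoma (-1.76, -2.00 and -0.87), and probe 4 of Whsc1l1 is higher (1.60).

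Dot1l, the H3K79 methyltransferase, changed by less than 2-fold. Its probe 2 (chr10:80575126-80575185, plus strand) ran from -0.38 to 0.28 (median -0.06) in adenoma, from -0.08 to 0.38 (0.25) in carcinoma, from -0.54 to -0.17 (-0.29) in disseminated cells and from -0.39 to -0.15 (-0.27) in metastases. All disseminated samples and all metastases lay below all carcinomas. The differences were -0.50 in disseminated cells (SE 0.10, adjusted p = 0.00212) and -0.43 in metastases (SE 0.11, adjusted p = 0.00874), and with the macrophage covariate -0.41 (adjusted p = 0.193) and -0.37 (adjusted p = 0.104). Probes 1 and 3 of Dot1l were called in no comparison, and none of the 3 pairs of Dot1l probes differed in group pattern.

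Disagreement between probes of a gene was common on these arrays and not particular to Setd5, Setd3 and Smyd3. Of the 19547 pairs of probes that share a gene name on the array, 51.5% had group patterns that differed in progression. Among the 42 pairs of the members 25 did, or 59.5%. This share holds the pairs of Setd5 (7 of 10), Setd3 (3 of 3) and Smyd3 (3 of 3), known beforehand to disagree, so it is partly set by the choice of genes. In the other genes the pairs that differed were 8 of 15 for Whsc1, 3 of 6 for Whsc1l1, 1 of 1 for Smyd2, 0 of 3 for Dot1l and 0 of 1 for Nsd1. The median correlation of same-gene probes across the 22 arrays was 0.242, and 28.3% of pairs had r below 0. Among the members the pairs ran from r = -0.40 to 0.93 with a median of 0.217, where the highest was Whsc1 probes 4 and 5, which lie 56 bases apart from end to start. The arrays are shared by all pairs, and these correlations are descriptions.

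Over the whole array the share that differed was higher for brighter probes, and correlations were lower for probes farther apart. The share that differed did not follow distance. Where both probes were well above background on every progression array, 62.4% of pairs differed, against 60% with 1 such probe and 34.2% with none, and the median r was 0.505, 0.188 and 0.180. Pairs up to 1 kb apart had a median r of 0.576, pairs 1 to 10 kb apart 0.239, pairs 10 to 100 kb apart 0.147 and pairs over 100 kb apart 0.129. The share that differed was 48.5%, 54.6%, 51.7% and 40.9%. Among pairs with both probes well above background on every array it was 55.0%, 66.8%, 65.6% and 60.4%. Of the 16 pairs of Setd5, Setd3 and Smyd3, 2 had both probes well above background throughout (probes 1 and 5 of Setd5 and probes 2 and 3 of Setd3), and both differed. No pair of Smyd3 probes was of this kind. Which transcripts or exons the probes detect was not tested.

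Partner genes were read from lists of readers, demethylases and cofactors that were chosen with earlier results known. Of 32 probes for 18 genes around H3K36, 6 were higher and 9 lower in metastases against adenoma (median change -0.22, against 0.02 for all probes), where 13.1% of all probes were higher and 14.4% lower. Against carcinoma 7 were higher and 4 lower (background 8.96% and 12.1%). Those that changed by at least 2-fold against adenoma were Kdm4a (2.05), an H3K36 and H3K9 demethylase, Kdm2a (-2.02), an H3K36 demethylase, the DNA methyltransferase Dnmt3a (-1.56) and the mismatch repair protein Msh6 (-1.13). Against carcinoma they were the demethylases Kdm2b (1.26) and Kdm4c (1.22) and the elongation factor Iws1 (1.32).

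Around Dot1l, 4 of 30 probes for 10 genes were higher and 8 lower in metastases against adenoma (median change -0.29, background 13.1% higher and 14.4% lower). The Dot1l cofactors Mllt1 (-2.61), Mllt3 (-2.15), Mllt6 (-1.50) and Mllt10 (-1.11) and the H2B ubiquitin ligase Rnf20 (-2.24) were each at least 2-fold lower on 1 probe, and the ubiquitin-conjugating enzyme Ube2b was higher on 1 probe (1.04). Against carcinoma 6 were higher and 7 lower (background 8.96% and 12.1%), with Mllt1 (-1.27), Mllt3 (-1.11) and Mllt6 (-1.72) at least 2-fold lower. In the same comparison Ube2b was 1.29 higher on another probe, and Rnf20 was 1.13 higher on 1 probe and differed by -1.30 on another. Of 19 probes for 10 other Setd and Smyd genes none was higher and 6 were lower against adenoma (background 13.1% and 14.4%), among them Setd1a (-1.14) and Setd1b (-1.29 and -1.35), which methylate H3K4. Of 9 probes for 5 partners and substrates, 2 were higher and 3 lower against adenoma (background 13.1% and 14.4%), and the rest were not called. Both Hsp90ab1 probes were higher (1.27 and 1.01), and Trp53 (-1.93) and both of the called Actb probes (-1.39 and -2.17) were lower. Against carcinoma 2 were higher and 2 lower (background 8.96% and 12.1%). There Hsp90ab1 was higher by 1.86 and 1.30, and Actb (-1.16) and Trp53 (-1.11) were lower on 1 probe each.

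The genes whose levels ran most alike with the brightest probe of each of the 3 genes were found among 15562 probes that have a gene symbol and were well above background on all 22 progression arrays. For Setd5 probe 5 they were Vapb (r = 0.90), Aldh4a1 (0.89) and Ccdc71 (0.89). For Setd3 probe 3 they were Cp (0.88), Cand1 (0.87) and Lpin1 (0.85), and for Smyd3 probe 2 they were Mrps28 (0.95), Mrps12 (0.94) and Nthl1 (0.94). These are the highest of many correlations over the same 22 arrays and are given with no test.

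In the chemotherapy experiment no member probe was called in residual against untreated tumors, in relapsed against untreated tumors or in relapsed against residual tumors, where 0.168%, 0.00486% and 0.228% of all probes were called by limma. At an unadjusted limma p below 0.05 there were 5, 4 and 2 member probes. The share of all probes at that limit was not taken, so these counts cannot be set against the array. No member had groups that did not overlap (background 0.741%, 1.64% and 1.65%). Changes of the 30 probes ran from -0.27 to 0.36 in residual and from -0.48 to 0.44 in relapsed against untreated tumors, and the 95% intervals reached from -1.08 to 0.74 and from -0.77 to 1.25 over all 30 probes. The widest intervals belonged to Dot1l probe 2, whose untreated tumors read 2.57, 1.35, 2.00, 0.46, 0.36 and 0.30. In the sample channel 20 of the 30 probes were well above background on every chemotherapy array. On no array was this so for 3 probes, Nsd1 probe 2, Whsc1 probe 3 and Smyd3 probe 3, so their lack of a call says little.

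None of the probes that disagreed in progression was called between the treatment groups. Setd5 probe 5 ran from 0.44 to 1.53 (median 0.88) in untreated, from 0.64 to 1.13 (0.81) in residual and from 0.85 to 1.24 (1.05) in relapsed tumors, and probe 1 from 0.12 to 0.62 (0.40), from 0.33 to 1.19 (0.50) and from 0.05 to 0.61 (0.37). Probe 2 of Setd3 ran from -0.38 to 0.05 (-0.28), from -0.35 to -0.02 (-0.19) and from -0.14 to 0.00 (-0.08), and probe 3 from 0.21 to 0.81 (0.46), from 0.30 to 0.64 (0.42) and from 0.51 to 0.80 (0.71). For Smyd3, probe 1 ran from -0.83 to -0.20 (-0.34), from -1.10 to -0.22 (-0.42) and from -0.87 to -0.20 (-0.45), and probe 2 from -0.07 to 0.29 (0.04), from -0.39 to 0.10 (-0.09) and from -0.27 to 0.41 (0.14). The 3 groups overlapped on each of these probes. For Setd5 probe 5 the 95% interval of the change was -0.45 to 0.27 in residual and -0.29 to 0.51 in relapsed tumors. Its called changes in progression, all between arrays of different slides and scan days, lie outside both intervals. Of its uncalled differences between groups that shared slides, -0.25 lies inside both and 0.57 outside.

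The member with the smallest adjusted p was Setd5 probe 3, which ran from -1.06 to -0.53 (median -0.57) in untreated, from -1.11 to -0.42 (-1.02) in residual and from -1.35 to -0.97 (-1.12) in relapsed tumors. Its difference of -0.48 in relapsed against untreated tumors (SE 0.14) had an adjusted p of 0.311. Smyd4 differed by 0.36 and 0.44, Setd2 by 0.26 and 0.15 and Nsd1 probe 2 by -0.22 and -0.30 in residual and relapsed against untreated tumors. None of these passed. Nsd1 probe 2 was well above background on 0 of 16 arrays in either channel, so its differences are not reliable. No pair of member probes differed in group pattern over the 3 groups (0 of 42), where 0.0563% of all same-gene pairs of the array did. At an unadjusted p below 0.05 in the F test there were 3 member pairs, and the share of all pairs at that limit was not taken. The correlations of same-gene probes over the 16 arrays were nonetheless about as low (median 0.232) as in progression.

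**Figure D5:**
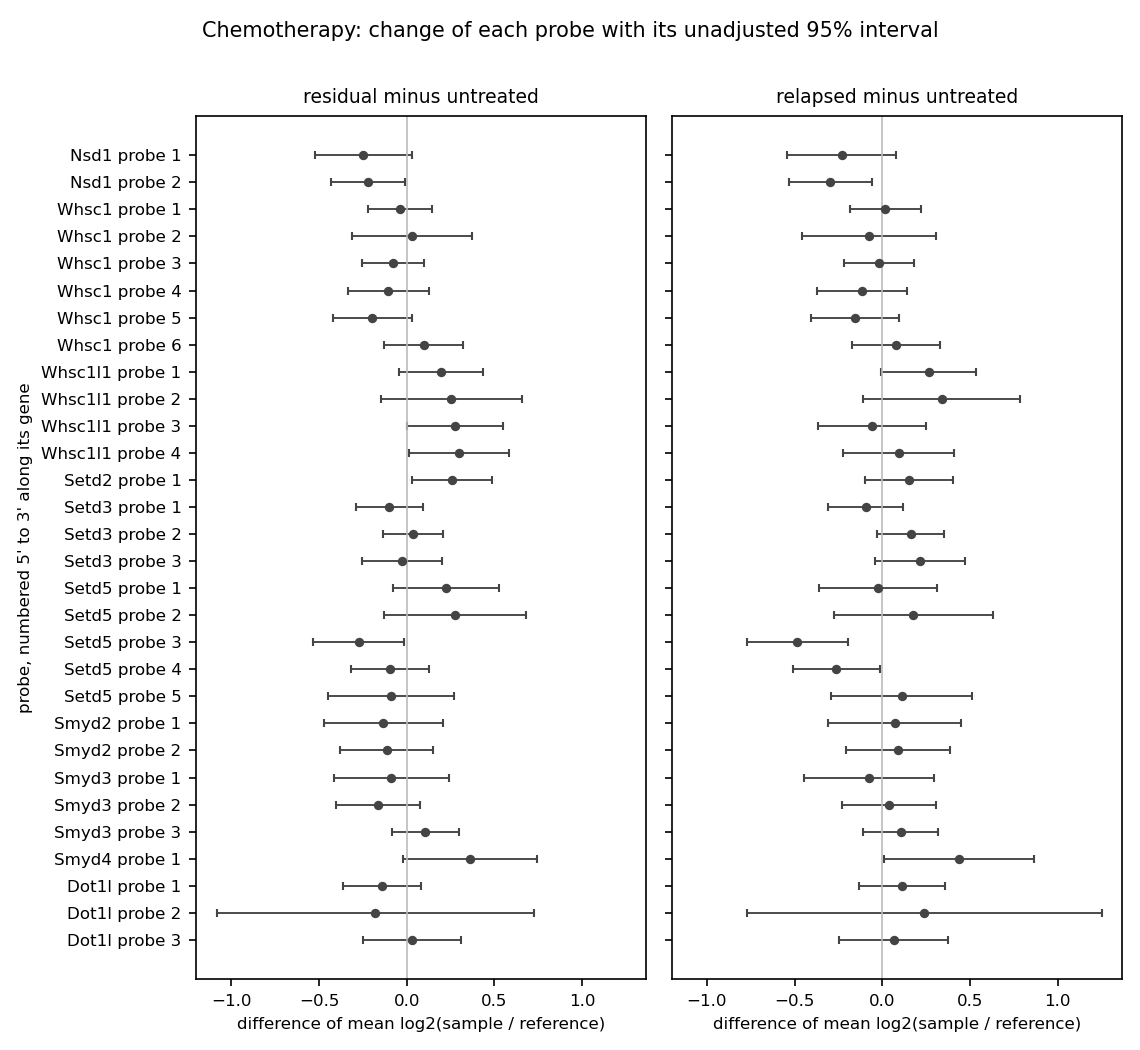
Difference of group means in log2(sample/reference) for each of the 30 probes (rows) in residual (left) and relapsed (right) against untreated tumors, with unadjusted 95% intervals from limma. All differences lie between -0.48 and 0.44, and none has an adjusted p below 0.05.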

How the data were processed

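RNA of GFP-positive cells was hybridised with a Cy3-labelled universal reference on 38 Agilent whole mouse genome arrays (22 progression, 16 chemotherapy; no dye swap). RNA was amplified in 2 rounds for progression and in 1 for chemotherapy, so each experiment was processed and tested alone. The authors deposited scanner intensity values from Agilent Feature Extraction 10.7 and a table of normalized log2 ratios, made with limma after background correction, loess and quantile normalization. Here the deposited intensity values (mean signals and median backgrounds) were corrected by normexp (offset 50), normalized by loess within arrays and quantiles between arrays, and repeated spots were averaged to 41174 probes (limma 3.58.1, R 4.3.3). Control spots and non-uniformity outliers were left out. The deposited log2 table, an alternative, correlated with these values at r = 0.966 to 0.998 per array, and its array medians lay between 0.00472 and 0.0526.

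Groups were compared over all groups of an experiment with lmFit and eBayes, with Benjamini-Hochberg adjustment over all probes at 0.05. Probe pairs of genes with 2 to 10 probes were tested by an F test on the within-array difference. Coordinates are those of the scanner files (mm7). Named genes were the members, list genes called at 2-fold or more, and the 3 genes most correlated with the brightest probe. The members and lists were chosen with earlier results of these data known. Steps were tested on simulated data. The number of arrays limits the precision. Alternatives were other background, normalization, filter, block and covariate settings, and leaving out each array; the macrophage covariate and the fit without 4 arrays were chosen after seeing the data.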

Additional observations from a re-analysis of the deposited data

Results flagged for a closer look

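In 10 of 210 tests of a probe within a group of 4 to 6 arrays, 1 array lay far from the rest of its group, and chance alone gives about 1 in 20. In adenoma, Whsc1 probe 5 read -0.25 in replicate 4 (the others 1.21 to 1.46) and Setd3 probe 2 read -0.68 in replicate 3 (the others -1.39 to -1.24). Carcinoma replicate 6 stood apart on 3 probes, with Setd2 at -1.67 (the others -1.10 to -0.83), Setd3 probe 2 at -0.52 (-1.83 to -1.50) and Smyd2 probe 2 at -2.29 (-1.28 to -0.94). Disseminated replicate 6 read -0.050 on Setd3 probe 2 (-2.16 to -1.63). Both replicates 6 were also among the arrays least like their group over all probes. In metastases, Setd5 probe 3 read -0.86 in replicate 2 (-2.06 to -1.87) and Smyd2 probe 1 read 0.12 in replicate 4 (-0.23 to -0.13). In the chemotherapy experiment, Setd5 probe 3 read -1.06 in untreated replicate 5 (-0.67 to -0.53) and -0.42 in residual replicate 1 (-1.11 to -0.93). The causes were not tested.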

How the results depend on the processing

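No called change turned its direction under any alternative run. The 50 called changes had 1835 alternative values, of which 1608 kept the call and 227 no longer passed. Leaving out 1 replicate at a time gave 12 to 15 called probes in metastases against adenoma, 5 to 10 against carcinoma and 4 to 10 against disseminated cells, 5 to 10 in disseminated cells against adenoma and 5 to 7 against carcinoma, 3 to 8 in carcinoma against adenoma, 22 to 26 probe pairs, and 0 in chemotherapy. The lows were 5 in metastases against carcinoma (without carcinoma 1, 2 or 4 or metastases 2 or 4), 4 in metastases against disseminated cells (without disseminated 3 or metastases 1, and 5 without either replicate 2), 5 in disseminated cells against adenoma (without disseminated 5 or adenoma 3 or 5) and 3 in carcinoma against adenoma (without carcinoma 1, 2, 3 or 5 or adenoma 2 or 3), which rose to 8 without adenoma 4. With 1 probe a gene (10 genes) the counts were 5, 2, 3, 5, 3 and 3 in the order of comparisons above. With the macrophage covariate they were 6 and 1 in metastases against adenoma and carcinoma, 0 and 2 in disseminated cells against adenoma and carcinoma, and 15 pairs, and 30 of the 50 calls were lost. Median centring gave 3 in carcinoma against adenoma, and fitting only the compared groups gave 1 in metastases against disseminated cells. Replicate numbers did not pair the samples: same-numbered deviations correlated at -0.39 to 0.29 in progression and -0.40 to 0.43 in chemotherapy. A replicate block gave 14, 8, 7, 6, 7 and 4 probes and 27 pairs, and 0 in chemotherapy. Slide as a fixed block gave 10 in metastases against carcinoma and 10 in disseminated cells against adenoma, and could not be fitted elsewhere in progression. Dim probes (14 of 30 were well above background on every progression array) limit what the low levels can show. In chemotherapy every alternative run also gave 0 called probes.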
